A study of Mus musculus with 7 samples.

Results

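Serpina7, Ttr, Dio1, Thra, Thrb and Crym are the 6 genes described here: the plasma carriers, the activating enzyme, the nuclear receptors and the intracellular binding protein of thyroid hormone. They were taken by name from the annotation of the array, which gave exactly 1 probe set with 1 gene symbol for each of the 6, out of 21631 such probe sets for 19933 genes. The genes were selected on their log2 intensities in knockout against rescued livers, so these values are given as a description without a test. Livers of 7 male C57BL/6 mice aged 4 months were measured on Affymetrix Mouse Gene ST arrays. In the HDAC3 knockout group (KO, 3 arrays) the mice had been injected with AAV-Cre, an adeno-associated viral vector for the recombinase Cre. The rescued mice (4 arrays) had AAV-Cre together with AAV-Flag-HDAC3, which encodes Flag-tagged wild-type HDAC3. All 7 mice therefore carried the Cre virus, all had free access to normal chow, and all livers were taken at 5 pm (ZT10, counted from lights on), 2 weeks after injection. The labels call the arrays biological replicates, and their small number limits the precision. The groups also differ by the additional vector of the rescued mice, no uninjected liver was analysed here, and the sources used here do not name the allele that Cre deletes or the promoter of either vector. HDAC3 is a histone deacetylase of the NCoR and SMRT corepressor complexes. The comparison sets livers labelled as knockout against livers that also received the HDAC3 vector, and no protein was measured.

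Thyroid hormone leaves the gland mostly as thyroxine and travels in blood bound to thyroxine-binding globulin, transthyretin and albumin, all made by the liver. Hepatocytes take it up through membrane transporters and convert part of it to the active hormone triiodothyronine with a selenium-containing deiodinase. The hormone acts through nuclear receptors that pair with retinoid X receptors. Without hormone these receptors recruit the NCoR and SMRT complexes, which contain HDAC3, and with hormone they recruit coactivators.

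The promoter windows of Serpina7 and Dio1 are shown because both genes varied most among the 6 over the arrays, Serpina7 between the groups and Dio1 among the rescued livers. Both come from the RefSeq table of assembly GRCm38.p6, with 250 bases before and 50 bases after the start, written 5′ to 3′. Serpina7 lies at chrX:139085187-139085486 on the minus strand and Dio1 at chr4:107307119-107307418 on the minus strand.
Serpina7 promoter: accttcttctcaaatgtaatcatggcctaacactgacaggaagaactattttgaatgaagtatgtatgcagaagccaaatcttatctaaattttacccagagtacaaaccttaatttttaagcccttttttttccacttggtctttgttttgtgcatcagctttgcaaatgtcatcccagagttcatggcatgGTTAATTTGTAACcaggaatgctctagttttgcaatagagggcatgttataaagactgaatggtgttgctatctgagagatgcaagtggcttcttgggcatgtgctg
Dio1 promoter: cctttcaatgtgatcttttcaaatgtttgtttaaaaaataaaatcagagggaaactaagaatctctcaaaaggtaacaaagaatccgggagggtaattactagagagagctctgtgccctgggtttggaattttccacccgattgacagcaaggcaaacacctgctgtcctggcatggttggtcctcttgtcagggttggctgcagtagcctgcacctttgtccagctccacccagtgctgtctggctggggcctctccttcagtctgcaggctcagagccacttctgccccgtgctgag
The capitals mark a match to the binding motif of HNF1, a transcription factor of hepatocytes, searched as its 13-base palindromic consensus on both strands with up to 2 mismatches. The same stretch matched on each strand with 2 mismatches, beginning 57 bases before the start. A second Serpina7 window, at chrX:139085170-139085469, held this stretch 74 bases before its own start. Such a match was present in 1.36% of 32851 promoter windows. The core binding element of the thyroid hormone receptor, searched as AGGTCA on both strands, was in neither printed window. It was present once in the upstream one of the Thrb windows, at chr14:17660710-17661009, and in 16.3% of all windows. Of the 6 genes, 5 were looked up, without Ttr, and 3 had a window (Serpina7, Dio1 and Thrb). The match at Serpina7 is a description of these letters, and no binding was measured.

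Values below are log2 intensities of probe sets, differences are KO minus rescued on the log2 scale, and SE is the moderated standard error from limma. The lowest and highest median intensity per array was 105.01 and 110.85 in KO livers and 96.289 and 102.33 in rescued livers, so all KO arrays were brighter at the median. The median gene differed by 0.09 as deposited, by 0.0035 after quantile normalization, by 0.00 after cyclic loess, and by -0.03 when each array was centred on its median. These 3 rescalings are used below beside the deposited values. Of all genes, limma called 14.4% as deposited (9.54% higher and 4.85% lower in KO livers), 9.98% after quantile normalization (4.22% and 5.76%), 13.5% when median centred (2.59% and 10.9%) and 9.84% under loess (4.09% and 5.75%). The Hdac3 transcript was 8.92 ± 0.16 (SD, n = 3) in KO livers and 9.40 ± 0.13 (SD, n = 4) in rescued livers. It was 1.40-fold lower in KO livers (difference -0.48, adjusted p = 0.0124 in limma), a call that was lost without KO 1 (-0.49, with an adjusted p at the threshold of 0.05). The probe set may read vector RNA as well as the remaining endogenous RNA, so it checks the labels only in part. Of 6 hepatocyte markers other than Ttr 5 were measured, at mean levels of 12.05 to 13.77, and none was called. Among the markers of other liver cells, Lrat of stellate cells was called higher and Clec4g of endothelial cells lower (differences 0.32 and -0.29, limma adjusted p = 0.0398 and 0.0477), and no marker of Kupffer cells, cholangiocytes, lymphocytes or neutrophils was called. The call of Lrat was lost after median centring (adjusted p = 0.141) and that of Clec4g after cyclic loess (adjusted p = 0.0562). The summed level of the 5 endothelial markers was 11.74 to 12.01 in KO livers and 12.03 to 12.07 in rescued livers. Clec4g was the brightest of these 5, while Stab2, Pecam1 and Kdr differed by -0.05, -0.0008 and -0.08 and Lyve1 by 0.15. The sum of the 6 stellate markers was 10.76 to 10.82 in KO livers and 10.59 to 10.75 in rescued livers. That of the 4 measured cholangiocyte markers was 9.0031 to 9.19 in KO livers and 8.80 to 8.94 in rescued livers. The sums of the other cell types overlapped between the groups. These sums are as deposited, where the KO arrays were brighter at the median, and are not given after rescaling. Of all single genes, 29.6% had KO and rescued arrays apart as deposited, and no such share was worked out for sums. The part of these cell types in the results was not tested.

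Serpina7, which encodes thyroxine-binding globulin, the high-affinity carrier of thyroxine in blood, was higher in every KO liver than in any rescued liver. It measured 10.89, 10.94 and 10.42 in the 3 KO arrays, and 8.87, 9.28, 8.97 and 8.18 in the 4 rescued arrays. Every KO array lay above every rescued array, with a gap of 1.14 between the lowest KO and the highest rescued value. On the linear scale the probe set read 1369.4 to 1961.1 in KO livers and 289.5 to 621.3 in rescued livers. The means were 10.75 ± 0.29 (SD, n = 3) in KO livers and 8.82 ± 0.46 (SD, n = 4) in rescued livers. KO minus rescued came to 1.93 (SE 0.22), or 3.80-fold, and 2 of the 19933 genes, Orm3 and Saa2, had a larger positive difference. In bulk liver RNA, more cells of a type and more RNA per cell cannot be told apart. Within the KO group KO 3 was the lowest, and within the rescued group rescued 4 was the lowest. Without KO 3 the difference was 2.09, and without rescued 4 it was 1.71. KO 3 also had the highest values of the acute phase genes Saa2 and Lcn2, neither of them called and both named after their values were seen. Saa2 read 12.11 in KO 3 and 7.92 and 9.11 in the other KO livers, against 7.21 to 8.69 in rescued livers. Lcn2 read 11.39 in KO 3 and 7.90 and 9.71 in the other KO livers, against 8.06 to 9.49 in rescued livers. Among the acute phase genes listed, KO 3 was the highest KO array for most and the lowest for others, such as Cp. The part of the acute phase genes in the level of Serpina7 in KO 3 was not tested.

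Ttr, which encodes transthyretin, the carrier of thyroxine and, with retinol-binding protein, of retinol, was close to the top of the measured range in every liver. It measured 13.54, 13.54 and 13.44 in KO livers and 13.49, 13.48, 13.46 and 13.47 in rescued livers. On the linear scale it read 11080.6 to 11917.9 in KO livers and 11267.9 to 11494.9 in rescued livers, where the brightest value of any probe set was 17351. The difference was 0.03 (SE 0.06), and the arrays of the groups overlapped. Its direction depended on the scaling, at -0.04 with quantile normalization, -0.09 when median centred and -0.06 under loess. After median centring and after cyclic loess every KO array lay below every rescued array for Ttr.

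**Figure D1:**
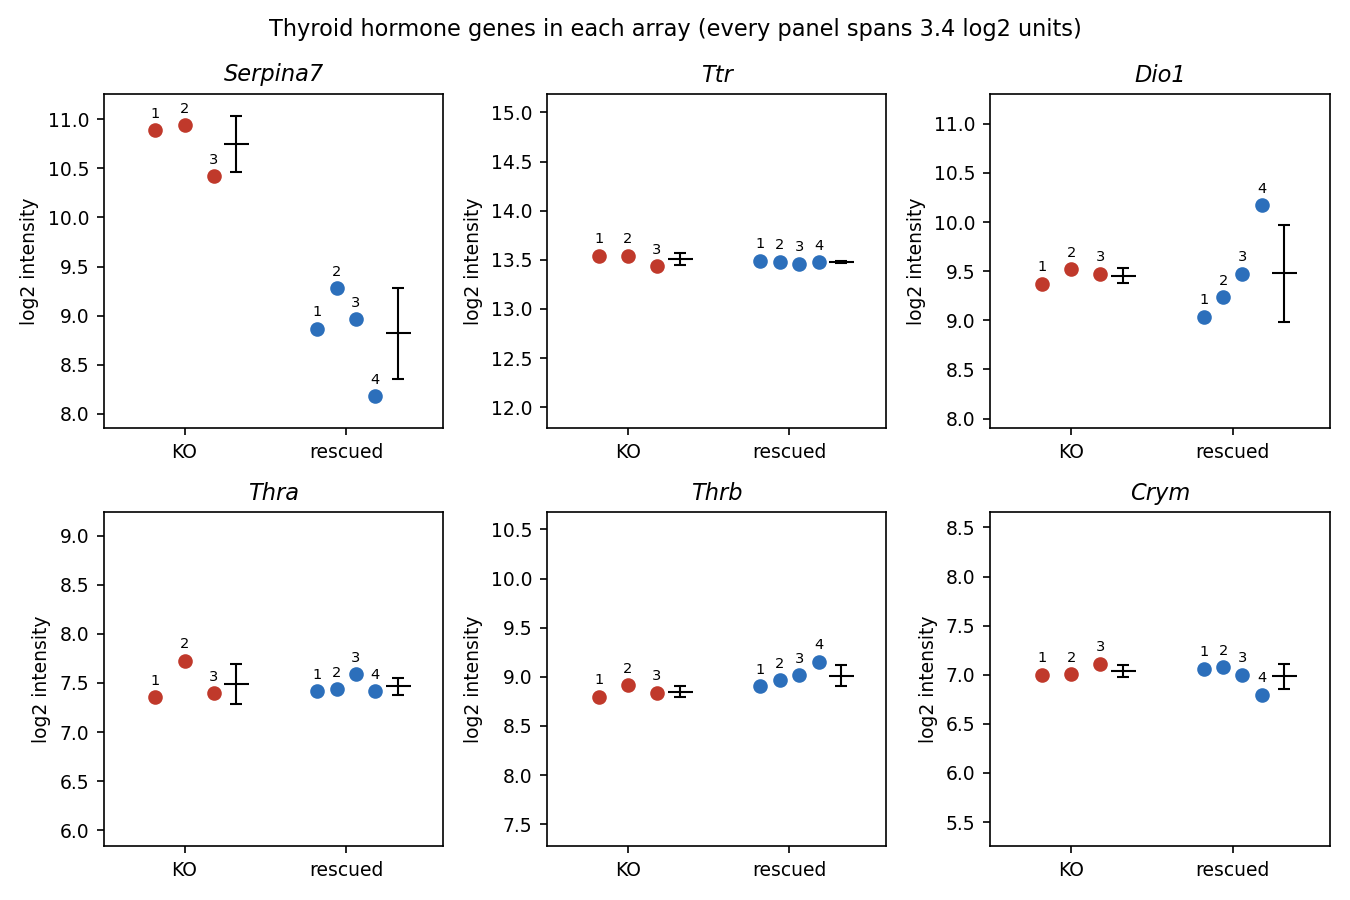
Log2 intensity of the 6 genes in each array (points, numbered by replicate, KO left in red and rescued right in blue), with the group mean and SD beside the points. All panels span the same number of log2 units. The KO and rescued arrays are apart for Serpina7, by 1.14, and overlap for the other 5 genes as deposited.

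Dio1 encodes the type 1 deiodinase, the selenium-containing enzyme that converts thyroxine to triiodothyronine in liver and is itself a thyroid hormone-responsive gene. It measured 9.37, 9.52 and 9.47 in KO livers and 9.04, 9.24, 9.48 and 10.17 in rescued livers. The KO values lay inside the range of the rescued values. The difference was -0.03 (SE 0.21), with 9.45 ± 0.08 (SD, n = 3) in KO livers and 9.48 ± 0.49 (SD, n = 4) in rescued livers. The spread was uneven between the groups, with a range of 0.15 among KO arrays and 1.13 among rescued arrays, which is 1.11-fold and 2.19-fold from lowest to highest. The rescued SD of Dio1 lay at percentile 99.8 of all genes, and its KO SD at percentile 29.7. Without rescued 4 the rescued SD was 0.22 and the difference was 0.20. Serpina7 also had a wide spread among rescued arrays, with its SD likewise at percentile 99.8.

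The receptors showed small differences. Thra, which encodes the alpha receptor, the form of heart, bone and brain, measured 7.35, 7.72 and 7.39 in KO livers and 7.42, 7.43, 7.59 and 7.42 in rescued livers. Its difference was 0.02 (SE 0.10), with the sign depending on the scaling (-0.0024 with quantile normalization, -0.09 when median centred and -0.01 under loess). Thrb, which encodes the beta receptor, the main form in liver, measured 8.80, 8.91 and 8.84 in KO livers and 8.90, 8.96, 9.02 and 9.15 in rescued livers. The difference of Thrb was -0.16 (SE 0.08), or 1.12-fold lower in KO livers. KO 2 and rescued 1 differed by 0.01, and this pair was all that made the groups overlap. Thrb stayed lower in KO livers in every scaling tried, at -0.13 with quantile normalization, -0.28 when median centred and -0.14 under loess, and in these 3 scalings its groups did not overlap. The size of the difference was near that of the median gene in either direction, at percentile 55.5 of all absolute differences.

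Crym encodes mu-crystallin, a cytosolic protein that binds triiodothyronine. It measured 7.0, 7.0045 and 7.11 in KO livers and 7.06, 7.08, 7.0 and 6.80 in rescued livers. The groups overlapped, the difference was 0.05 (SE 0.08), and it was -0.03 with quantile normalization, -0.06 when median centred and -0.03 under loess. Its mean intensity exceeded that of 98.9% of 1194 genes for olfactory or vomeronasal receptors, which serve as a rough measure of dim probe sets in liver, since brightness also depends on the probe. The same share was 99.7% for Thra, 99.9% for Thrb and 100% for Serpina7, Ttr and Dio1.

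As deposited, KO and rescued arrays were fully apart for 1 of the 6 genes, Serpina7, while the same held for 29.6% of all genes, and for 21.0% with KO higher. Since the genes were chosen with this contrast known, nothing is read from that count. The count was 2 after quantile normalization, with Thrb lower, against 24.6% of all genes. It was 3 with median centring and 3 under loess, with Ttr and Thrb lower, against 27.3% and 24.6%.

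**Figure D2:**
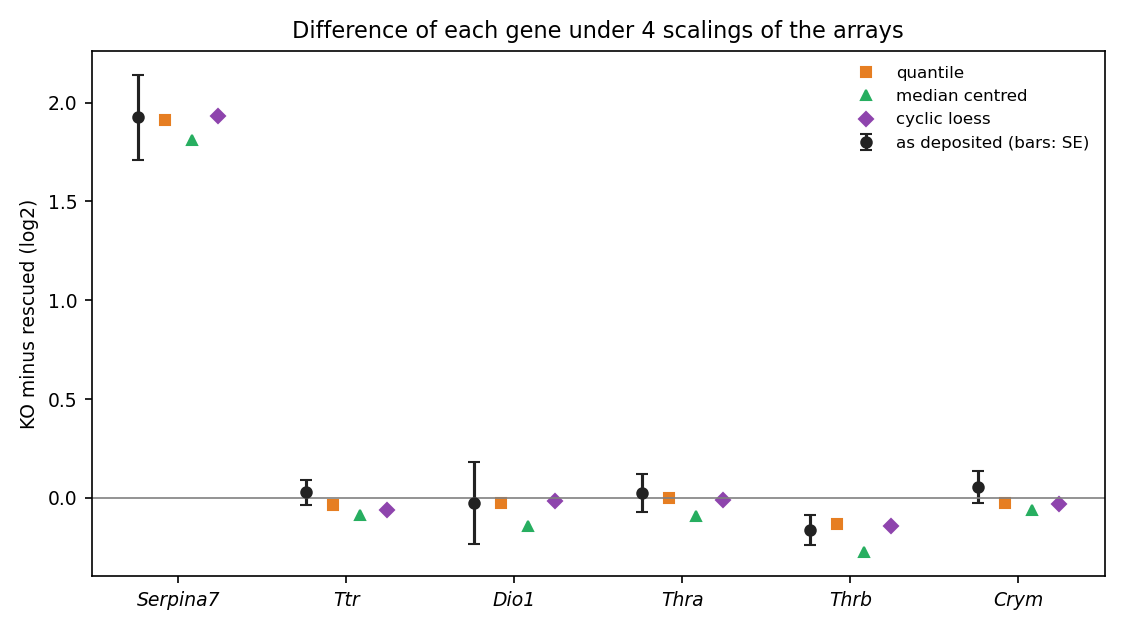
KO minus rescued difference (log2) of each gene as deposited (circles, bars are the SE) and under the 3 rescalings. Serpina7 stays between 1.81 and 1.93, while Ttr, Thra and Crym change sign and Thrb stays below 0.

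**Figure D3:**
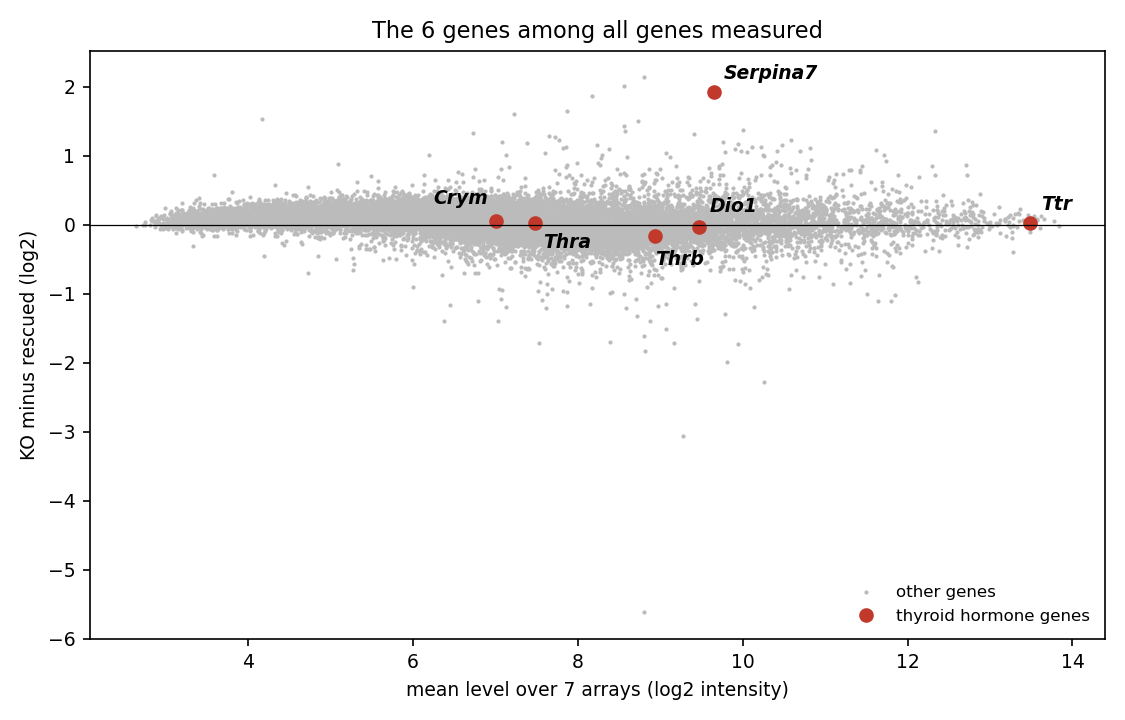
KO minus rescued difference (log2) of 19933 genes against their mean level over the 7 arrays (log2 intensity), as deposited, with the 6 genes in red. Serpina7 stands at 1.93, and the other 5 lie between -0.16 and 0.05, within the mass of all genes.

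The rescued arrays also varied among themselves in these genes. Rescued 4 had the lowest Serpina7 and Crym and the highest Dio1 and Thrb of the 4 rescued arrays. With Thra, in which rescued 4 and rescued 1 were equal at 2 decimals, it was the highest or the lowest rescued array in 5 of the 6 genes. It held an end of the rescued range in 51.3% of all genes, against 61.3% for rescued 1. Among KO arrays, KO 2 was the highest in 4 of the 6 genes, against 30.8% of all genes. KO 1 was the lowest in 4 of the 6 genes, against 19.2% of all genes. These are values of single livers, and they have no test.

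Other genes of thyroid hormone transport, metabolism and action came from 6 lists, which also hold other plasma binding proteins such as Afm. The lists have 79 different genes, of which 70 were measured. Of these, 9 rose and 9 fell in KO livers at an adjusted p under 0.05 in limma, which is 25.7% of them. Of all genes 14.4% were called, 9.54% higher and 4.85% lower. The calls in the lists include Hdac3 itself. The lists were also chosen with earlier results of these data known, so nothing is read from these shares. The median difference over the 70 genes was 0.03, against 0.09 over all genes. The split was again 9 higher and 9 lower after quantile normalization (of all genes 4.22% and 5.76%) and under loess (4.09% and 5.75%). It was 3 higher and 18 lower after median centring (of all genes 2.59% and 10.9%). The calls that held as deposited and after all 3 rescalings numbered 3 higher and 8 lower. Higher calls numbered 2 without KO 1, 3 without rescued 3 and 3 without rescued 4, and lower calls 5 without KO 1. No test compared the lists with other genes.

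Among 7 measured plasma binding proteins 1 fell and none rose. One alternative fit at a time, 1 rose without rescued 1, in the trended robust fit and with genes above the median level alone. The gene that fell was Afm, which encodes afamin, a vitamin E binding glycoprotein of the albumin family. It measured 9.46, 9.58 and 9.49 in KO livers and 10.32, 10.39, 10.36 and 10.18 in rescued livers, 1.75-fold lower (difference -0.81, adjusted p = 0.000206). The groups of Afm were far apart, and the call held in all 14 alternatives. Albumin, the low-affinity carrier of thyroxine, had 13.80 ± 0.03 in KO livers and 13.75 ± 0.04 in rescued livers, and was named after its value was seen (Alb, difference 0.05). The median difference of this list was 0.05.

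Of 12 measured transporter genes 1 rose and 2 fell, with a median of -0.10, and after median centring none rose and 5 fell. Those gained by median centring were Slco1a5, Slco1b2 and Slc10a1 (adjusted p = 0.0321, 0.0287 and 0.0344, against 0.137, 0.0560 and 0.125 as deposited). Of these Slco1a5 was also called after quantile normalization (0.0279) and cyclic loess (0.0308), and all were named after their values were seen. Slco1a5 was dim, at 4.79 in KO livers and 4.96 in rescued livers. Its mean exceeded that of only 67.8% of the olfactory or vomeronasal receptor genes. Slco1a1, an organic anion transporter that also carries thyroid hormones, measured 9.36, 8.69 and 8.83 in KO livers and 11.18, 11.25, 11.42 and 11.08 in rescued livers. It was 4.83-fold lower (difference -2.27, adjusted p = 1.83e-05), with no overlap, and was called in all 14 alternatives. Slco2b1, of the same family, was 1.22-fold lower (difference -0.29, adjusted p = 0.0447), and its call was lost after quantile normalization (adjusted p = 0.0552) and cyclic loess (0.0714). It was also lost without KO 1, KO 2, KO 3, rescued 1, rescued 3 or rescued 4, with differences from -0.34 to -0.23 over the arrays left out. Slc3a2, the heavy chain of the amino acid transporters that also move thyroid hormone, was 1.22-fold higher (difference 0.28, adjusted p = 0.0290). The call of Slc3a2 was lost after median centring (adjusted p = 0.115) and without KO 1, KO 2, rescued 3 or rescued 4 (differences 0.24 to 0.32 over the arrays left out). Slc16a10, a transporter of aromatic amino acids and triiodothyronine, named after its values were seen, measured 10.44 ± 0.17 in KO livers and 10.17 ± 0.17 in rescued livers and did not pass the test (adjusted p = 0.0994).

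Of 8 measured genes for deiodinases other than Dio1 and for hormone clearance 1 rose and 1 fell, with a median of -0.10. The lower calls numbered 3 after median centring, which added Sult1b1 and Sult1c2 (adjusted p = 0.0264 and 0.0450, named after their values were seen), and 2 without rescued 2 or rescued 4. Sult1a1, a sulfotransferase that can conjugate iodothyronines, was 10.43 ± 0.14 (SD, n = 3) in KO livers and 9.82 ± 0.10 (SD, n = 4) in rescued livers, 1.53-fold higher (adjusted p = 0.00222). Iyd, the iodotyrosine deiodinase that recovers iodide, was 9.23 ± 0.12 in KO livers and 9.66 ± 0.07 in rescued livers, 1.35-fold lower (adjusted p = 0.00749). Both calls held in all 14 alternatives, with KO and rescued arrays apart. Dio2 and Dio3, the other deiodinases, named after their values were seen, lay at 5.39 and 5.41 in KO livers and 5.28 and 5.40 in rescued livers, and neither was called.

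Of 11 genes of selenoprotein synthesis, the machinery that Dio1 and other selenium proteins need, together with abundant selenoproteins, 2 rose and 1 fell as deposited, and none rose and 4 fell after median centring. Median centring added Secisbp2, Sephs1 and Trnau1ap to the lower calls (adjusted p = 0.0329, 0.0430 and 0.0178, named after their values were seen). Sephs2, the selenophosphate synthetase, was 1.24-fold higher (difference 0.31, adjusted p = 0.0192) and Txnrd1, a thioredoxin reductase, 1.19-fold higher (difference 0.26, adjusted p = 0.0434). Pstk, the kinase that primes the selenocysteine tRNA, was 1.29-fold lower (difference -0.37, adjusted p = 0.0253), at a low level of 5.84 in KO livers and 6.21 in rescued livers. The calls of Sephs2 and Txnrd1 were lost after median centring (adjusted p = 0.0698 and 0.260). Without single arrays Sephs2 ranged from 0.28 to 0.34 and was not called without KO 1, rescued 2, rescued 3 or rescued 4. Txnrd1 ranged from 0.21 to 0.30 and was called, among the single arrays left out, without KO 3 alone. Pstk ranged from -0.42 to -0.27 and was not called without KO 3, rescued 2 or rescued 4.

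Of 18 measured retinoid X receptor and coregulator genes 3 rose and 3 fell, with a median of -0.02. Higher calls numbered 1 after median centring and without KO 1, rescued 3 or rescued 4, and lower calls 0 without KO 1. Tbl1xr1, a subunit of the NCoR and SMRT complexes, measured 10.53, 10.45 and 10.35 in KO livers and 9.30, 9.20, 9.29 and 9.18 in rescued livers. It was 2.30-fold higher (difference 1.20, adjusted p = 1.69e-05), the only one of these genes past 1.5-fold, and its call held in all 14 alternatives. Ep300, an acetyltransferase that acts as a coactivator, was 1.45-fold lower (difference -0.54, adjusted p = 0.0113), and its call was lost without KO 1 (-0.44, adjusted p = 0.0536). Thrap3, a protein of the thyroid receptor associated group with a role in RNA processing, was 1.28-fold higher (difference 0.36, adjusted p = 0.0268). The call of Thrap3 was lost after median centring (adjusted p = 0.0778) and without KO 1, KO 2, rescued 3 or rescued 4 (differences 0.28 to 0.46 over the arrays left out). Hdac3 itself was another of the lower genes. Ncoa1, a steroid receptor coactivator, and Nrip1, a corepressor, were the others called, at -0.25 (adjusted p = 0.0289) and 0.29 (adjusted p = 0.0451), and were named after their values were seen. Ncoa1 lost its call without KO 1, KO 3, rescued 2, rescued 3 or rescued 4 (-0.28 to -0.24 over the arrays left out). Nrip1 lost its call after median centring (difference 0.18, adjusted p = 0.210) and without each array other than KO 3 (differences 0.24 to 0.36). The 3 retinoid X receptor genes were not called, and Rxra, the main form in liver, had a difference of -0.02 and was also named after its value was seen.

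Among 15 measured liver genes known to respond to thyroid hormone, which include genes that many other signals control, 2 rose and 1 fell, with a median of 0.12. The higher calls numbered 1 after median centring, 0 without KO 1, 1 without rescued 3 or rescued 4, and 5 without rescued 1. G6pc, the catalytic subunit of glucose-6-phosphatase, measured 11.63, 11.28 and 10.58 in KO livers and 12.47, 12.18, 12.24 and 12.19 in rescued livers. It was 2.16-fold lower (difference -1.11, adjusted p = 0.00691), with KO 3 the lowest, and was called in all 14 alternatives. Bcl3, a transcriptional coregulator, measured 9.45, 9.40 and 9.90 in KO livers and 8.62, 9.26, 9.01 and 8.94 in rescued livers, 1.54-fold higher (adjusted p = 0.0244). The call of Bcl3 was lost after median centring (0.0556) and without KO 1, KO 3, rescued 3 or rescued 4, with differences from 0.47 to 0.72 over the arrays left out. Hr, which encodes the nuclear receptor corepressor hairless, was 1.30-fold higher (difference 0.38, adjusted p = 0.0151) at a low level of 6.76 in KO livers and 6.37 in rescued livers, and its call was lost without KO 1 (0.33, adjusted p = 0.0606). The lipogenic genes of the list, named after their values were seen, were spread within the groups. The malic enzyme gene Me1 measured 11.44, 11.73 and 11.06 in KO livers and 11.17, 10.86, 10.87 and 10.15 in rescued livers (difference 0.65, adjusted p = 0.0624). Rescued 4 was the lowest of the rescued arrays for Me1, as it was for Serpina7, while it was the highest for Dio1. Thrsp, the hormone-responsive Spot 14 gene, measured 11.30, 11.42 and 11.16 in KO livers and 11.44, 10.60, 10.82 and 10.66 in rescued livers (difference 0.41, adjusted p = 0.113). Rescued 1 lay above all KO arrays for Thrsp.

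**Figure D4:**
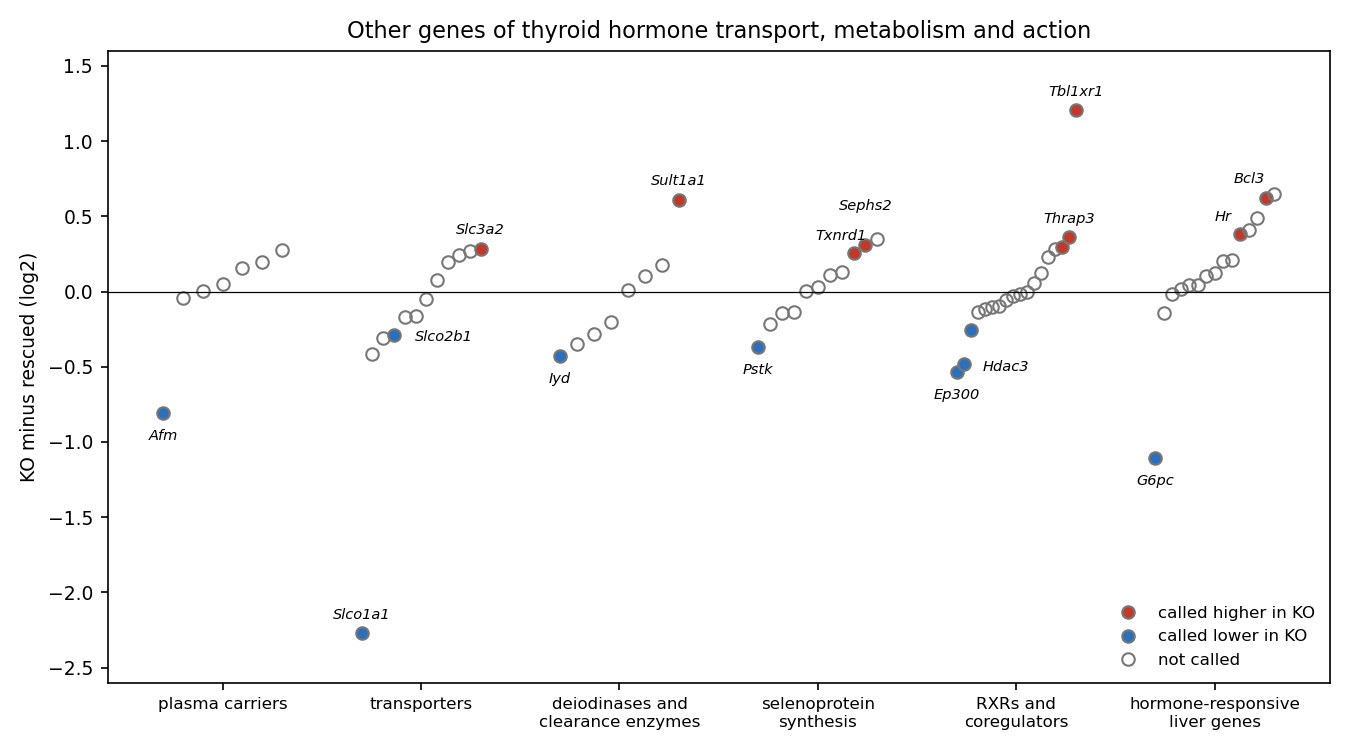
KO minus rescued difference (log2) of the measured genes of 6 lists, ordered by size within each list, with genes called higher in KO in red, called lower in blue and not called open (limma, adjusted p under 0.05). Slco1a1 at -2.27, Tbl1xr1 at 1.20 and G6pc at -1.11 stand farthest from 0; Ppargc1a belongs to 2 lists and is drawn in each.

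**Figure D5:**
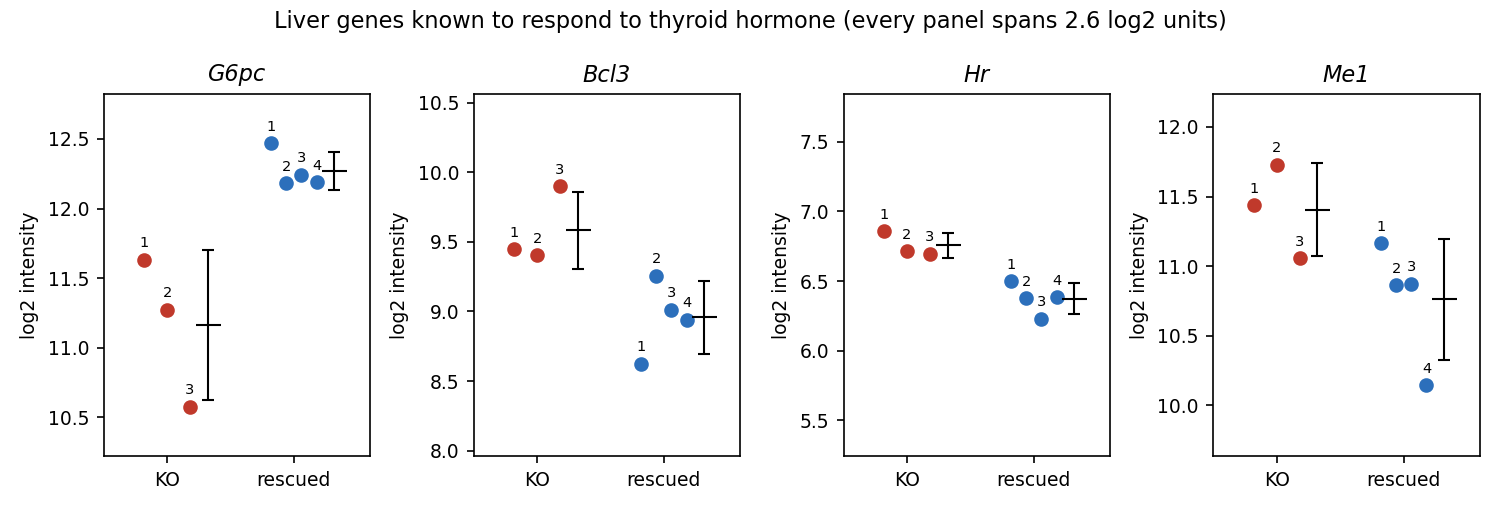
Log2 intensity of G6pc, Bcl3, Hr and Me1 in each array (points numbered by replicate, KO left, rescued right) with the group mean and SD. All panels span the same number of log2 units. The groups do not overlap for G6pc, Bcl3 and Hr, and KO 3 lies below rescued 1 for Me1.

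Of 8 measured genes of the thyroid gland, listed as a check for RNA of another tissue, 3 were called higher as deposited, Foxe1, Duox2 and Nkx2-1 (differences 0.33, 0.32 and 0.24). The call of Foxe1 was lost after median centring (adjusted p = 0.0637), and those of Duox2 and Nkx2-1 in all 3 rescalings, with adjusted p of 0.124 and 0.366 after cyclic loess. The median of this list was 0.25 as deposited and 0.13 after cyclic loess. The thyroglobulin gene Tg, named after its value was seen, lay at 6.02 in KO livers and 5.82 in rescued livers. Each of the 3 calls was also lost without KO 1, KO 2, rescued 2, rescued 3 or rescued 4, with differences of 0.27 to 0.38 for Foxe1, 0.26 to 0.39 for Duox2 and 0.19 to 0.30 for Nkx2-1 over the arrays left out, and that of Nkx2-1 also without rescued 1. Of 19 acute phase genes 2 rose, Orm3 (difference 2.14, adjusted p = 0.00285) and Cp (difference 0.24, adjusted p = 0.0427), and none fell (3 fell without KO 3). Of all genes, 9.54% were called higher and 4.85% lower as deposited. The call of Cp was lost in all 3 rescalings and whichever single array was left out (differences 0.21 to 0.27), while that of Orm3 held in all 14 alternatives.

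The 2 nearest measured protein-coding genes on either side of each of the 6 genes made 24 neighbours, of which 2 were called higher and 1 lower, or 12.5% of them, near the 14.4% of all genes. Around Serpina7 the neighbours were Nrk, Il1rapl2, 4930513O06Rik and 4933428M09Rik, with differences of 0.05, 0.05, 0.26 and 0.22. Of these 4930513O06Rik was called (adjusted p = 0.0481), at a level of 4.11 in KO livers and 3.85 in rescued livers. That call was lost in all 3 rescalings (differences 0.16, 0.15 and 0.16, adjusted p = 0.176, 0.238 and 0.181) and without each array other than KO 3. None of the 4 came near the 1.93 of Serpina7. The Thra locus overlaps that of Nr1d1, which encodes the circadian repressor REV-ERB alpha, and the overlap is known to lie on opposite strands. Nr1d1 measured 11.51, 10.87 and 10.69 in KO livers and 10.37, 10.32, 10.38 and 10.0015 in rescued livers, 1.69-fold higher (adjusted p = 0.0187), while Thra differed by 0.02. The call of Nr1d1 held in all 14 alternatives. The strand that each probe set reads is not stated. The corresponding neighbour of Thrb, Nr1d2, differed by 0.01, and the other neighbours of Thrb, Rarb, Top2b and Nkiras1, were not called. Ndc1, near Dio1, was 1.22-fold lower (difference -0.28, adjusted p = 0.0347), and its call was lost without KO 1, KO 2, KO 3, rescued 3 or rescued 4 (-0.32 to -0.24). The neighbours of Ttr (Dsg2, Dsg3, B4galt6 and Trappc8), of Crym (Anks4b, Zp2, Abca14 and Abca15), the others of Dio1 (Hspb11, Lrrc42 and Yipf1) and the others of Thra (Med24, Csf3 and Msl1) were not called. Csf3 had a difference of 0.38 (adjusted p = 0.0517).

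The genes whose levels ran most like each of the 6 over the 7 arrays were found by Pearson's r. The search covered 9508 genes with established names and a mean level above that of the median gene. The 7 arrays form 2 groups of animals, so a gene with the same group difference scores high, and r is a description. For Serpina7 they were Idh2, the mitochondrial isocitrate dehydrogenase (r = 0.994), Aph1a, of gamma-secretase (0.991), and Sqstm1, the autophagy adaptor p62 (0.990). Their differences were smaller, at 0.43, 0.12 and 0.50, and after cyclic loess r was 0.995, 0.896 and 0.991. For Dio1 they were Mtx3 (0.956), Mcts2 (0.952) and Maip1 (0.951), each with its highest value in rescued 4. For Thrb they were Acvr1, an activin receptor kinase (0.997), Amigo2 (0.993) and Nf2 (0.980). For Thra they were Kmt2e (0.997), Dennd4c (0.979) and Lhfpl2 (0.963), and for Crym H4c3 (0.978), Cyp21a1 (0.937) and Nos3 (0.923). For Ttr, whose values spanned 0.11 over KO arrays and 0.03 over rescued arrays, they were Ap3s1 (0.989), Camk2b (0.988) and Nudt16l1 (0.983). For the genes named beside Ttr, r was 0.237, 0.0985 and -0.0112 after cyclic loess.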

How the data were processed

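Affymetrix Mouse Gene ST arrays measured liver RNA of 7 mice. The deposited values are linear intensities of 27541 probe sets, normalized by the authors; RMA and Partek are named in the submitters' processing notes, and the genome build and any later scaling are not given in the sources used here. Intensities were log2-transformed. Of the probe sets 21631 had 1 gene symbol, 1317 had several and 4593 had none; 21544 matched RefSeq genes (GRCm38.p6). The brightest probe set stood for each of 19933 genes. The difference KO minus rescued was fitted by limma 3.58.1 (R 4.3.3; lmFit, then eBayes; two-sided, no covariates, no filter, Benjamini-Hochberg threshold 0.05), checked on simulated data. The simulated differences were larger than most of those named here, and no shift in brightness between the groups was simulated. Calls of small differences were therefore not checked in this way. Alternatives were 3 rescalings, a trended robust fit, a filter on dim genes, the mean of probe sets, a replicate block and leaving out each array. The 6 genes and all lists were chosen with earlier results of these data known, so no test of KO against rescued is given for the 6 genes, and Ttr was left out of the hepatocyte markers. Named from the lists were up to 4 called genes each with the largest differences; other named genes are marked in the text.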

Additional observations from a re-analysis of the deposited data

Results flagged for a closer look

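The 4 rescued arrays were examined for a single array far from the other 3 in 91 genes. These were the 6 thyroid hormone genes, Hdac3, the genes named from the lists, Lrat, Clec4g, the neighbours and the genes most alike. The endothelial markers Stab2, Pecam1, Kdr and Lyve1 were not examined. For Kdr rescued 3 read 8.80 and each other rescued array 8.64. In 10 of the 91 genes the gap of the highest or lowest array to its nearest neighbour took more of the group's range than Dixon's critical value, which chance alone does in about 5% of such groups. The rule concerns the spread among rescued livers, not KO against rescued, and for Thra it is a description. Rescued 3 was the highest array for Thra (gap 0.908 of the range), Nkiras1 (0.851) and Lhfpl2 (0.885), the last chosen for its likeness to Thra. Rescued 4 was the lowest for Nr1d1 (0.833), Aph1a (0.830), Cyp21a1 (0.908) and Sult1c2 (0.875), and the highest for Dio2 (0.854). Rescued 2 was the highest for Nkx2-1 (0.881) and rescued 1 for Nudt16l1 (0.949). Aph1a, Cyp21a1 and Nudt16l1 were likewise chosen for their likeness to one of the 6 genes. The KO group, with 3 arrays, was not examined in this way.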

How the results depend on the processing

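Serpina7 kept its direction under all alternatives, from 1.71 without rescued 4 to 2.09 without KO 3. Ttr was -0.04 with quantile normalization, -0.09 when median centred and -0.06 under loess. Under median centring Thrb was -0.28 and Crym -0.06. Leaving out arrays gave Dio1 -0.17 to 0.20 and Crym -0.01 to 0.09. Of all genes, 1901 were called higher and 966 lower. The higher calls numbered 842 (quantile), 517 (median centred), 816 (loess) and 1032 with genes above the median level alone, where fewer genes were tested. They numbered 449 to 2199 when 1 array was left out (449 without KO 1, 1078 without KO 2, 692 without rescued 2, 531 without rescued 3 and 798 without rescued 4). The lower calls numbered 2167 after median centring and 417 to 1064 when 1 array was left out (448 without KO 1, 643 without KO 2, 508 without rescued 2, 417 without rescued 3 and 533 without rescued 4). Higher calls made up 66.3% of calls as deposited, and 42.3%, 19.3% and 41.6% under these 3 rescalings in that order. The pathway lists had 3 higher and 18 lower calls after median centring, and 2 to 11 higher and 5 to 8 lower with an array left out. Neighbours called higher numbered 1 after each rescaling, with the filter and with the block, and 1 to 3 with an array left out; those called lower numbered 0 with the block and 0 to 1 with an array left out. The cause was not tested.

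Replicate numbers are shared by the groups, but same-numbered arrays deviated together with r of only 0.16, 0.01 and 0.06, and KO 2 and KO 3 correlated best with another number. With the replicate number as a block, 1233 genes were called higher and 705 lower. The block also lost the calls of Ndc1, Slco2b1, Slc3a2, Txnrd1, Thrap3, Ncoa1, Nrip1, Nkx2-1, Cp and 4930513O06Rik. Their limma adjusted p under the block ran from 0.0530 for Thrap3 to 0.0947 for Nrip1. Rescued 4 has no KO partner, so the differences under the block are those without it, such as 1.71 for Serpina7 and 0.20 for Dio1.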
